A study of Bos taurus with 8 samples.

Results

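Bovine embryos at the 4-cell stage that had been edited in RPL12 were compared with control embryos of the same stage, in 4 of the 8 libraries of the series. A gene was compared when its mean over these 4 libraries reached 1 CPM (read counts per 1000000 reads), which gave 12121 of the 16606 genes in the deposited table. The edited group held 2 libraries and the control group 2, with 5 pooled embryos behind each library. Oocytes from abattoir ovaries had been matured and fertilised in vitro. Zygotes of the edited group had received PEmax together with a guide RNA by cytoplasmic injection, and the edit is named A148G in the labels, which do not say from where the position is counted. PEmax is an engineered prime editor, a Cas9 nickase joined to a reverse transcriptase that copies a change from the guide RNA into the genome. The sample titles speak of base editing and the protocol of prime editing. The source field names oocytes where the titles name 4-cell embryos; the stage was taken from the titles. Not stated is whether the control embryos were injected, whether cumulus cells had been stripped before collection, what share of the alleles carried the edit, or whether the libraries of a group came from separate fertilisation rounds. The p-values therefore measure the spread between these libraries, which may be technical.

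A cattle embryo at the 4-cell stage lives mainly on messenger RNA and protein that the oocyte stored during its growth. These stored transcripts are held under translational control by short poly(A) tails and RNA-binding proteins, and they are removed in waves by deadenylation and decay, while the main activation of the embryo's own genome follows at a later cleavage stage. RPL12 is a protein of the large ribosomal subunit near the base of the stalk to which translation factors bind.

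The 4 libraries held 34026208 to 34755736 reads assigned to genes, and 14901 to 15438 genes had at least 1 read, so that 3 reads corresponded to 0.0868 to 0.0880 CPM. On the log2(CPM + 1) scale the libraries of the edited group correlated across the 12121 genes with a Pearson r of 0.972 and those of the control group with 0.971, whereas edited and control libraries correlated with 0.818 to 0.890. Genes are not independent replicates, so these correlations describe the libraries only. Read counts of replicate libraries differed far beyond counting error (chi-square divided by its degrees of freedom, 90.4 in edited and 145 in control embryos), and each library was kept as a replicate. Transcripts of oocyte origin were present in every library, which does not tell a 4-cell embryo from an oocyte. BMP15, a growth factor secreted by the oocyte, stood at 3638 and 2970.2 CPM in the edited libraries and at 1519 and 2513 CPM in the control libraries. GDF9, its partner in oocyte signalling, was at 750.2 and 703 CPM in the edited libraries and at 301 and 636 CPM in the control libraries.

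Edited embryos differed from controls across a large share of the transcriptome. In the limma model 2297 genes were higher and 3214 lower in edited embryos at a Benjamini-Hochberg adjusted p under 0.05, which is 19.0% and 26.5% of the genes tested, and 6610 genes passed in neither direction. Counts given below for gene lists and their subgroups are to be read beside these 2 shares. A change of at least 2-fold was seen in 1461 of the higher and 2885 of the lower genes. The median difference was 1.11 among the higher and -1.69 among the lower genes, on the log2(CPM + 1) scale used for every difference given here (edited minus control, ± SE of the limma fit, 2 libraries per group). Over all genes tested the median was -0.04 and the quartiles were -0.97 and 0.62. The libraries of the groups did not overlap for 33.3% of the genes, higher in edited embryos, and for 38.3%, lower. Genes named below from a list were chosen for their small p-values. Separated groups and close replicates among them follow from that choice and add no support. Among the third of genes with the highest mean level 33.7% were higher and 29.7% lower, and among the third with the lowest mean level 5.07% and 22.7%. The plot of level against change shows both arms.

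**Figure D1:**
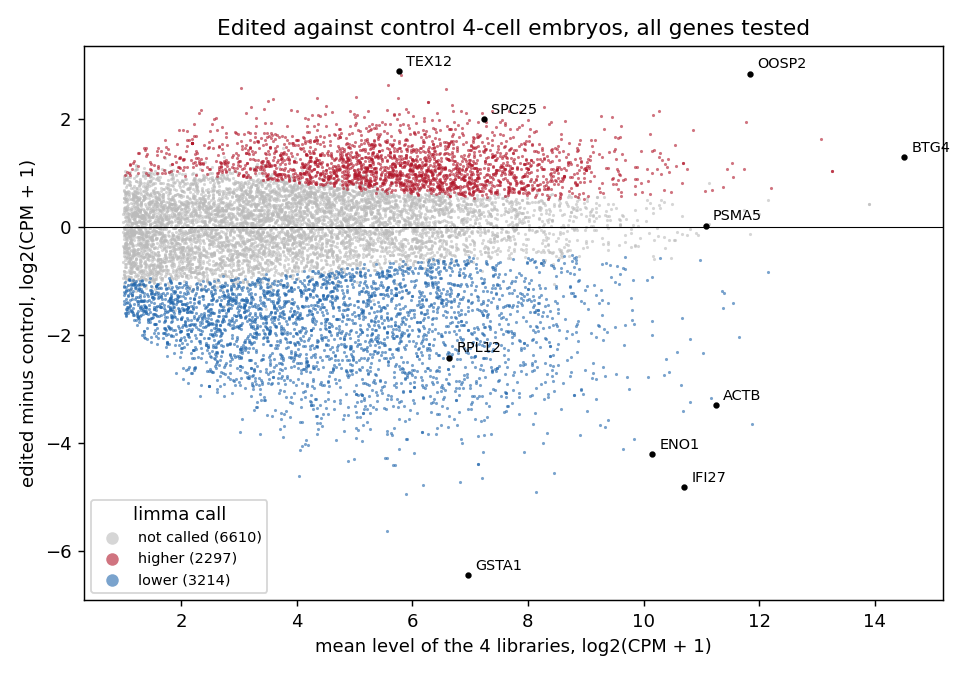
Each point is 1 of the 12121 genes, with the mean level of the 4 libraries on the x axis (log2(CPM + 1)) and the edited minus control difference on the y axis (log2(CPM + 1)). Red points are the 2297 genes called higher, blue points the 3214 called lower and grey points the 6610 not called, and the lower arm reaches further from 0 than the upper arm.

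The genes called higher took 48.6% and 50.4% of all reads in the edited libraries and 19.5% and 25.7% in the control libraries. Conversely, the genes called lower took 11.7% and 12.6% of reads in edited and 45.3% and 38.5% in control embryos. CPM values are close to shares of a library, so a rise in one arm lowers the other, and total RNA per embryo was not measured. In pooled whole embryos, fewer cells of a type and less RNA per cell cannot be told apart. With quantile normalization, which moved the median over all genes from -0.04 to 0.22, 3371 genes were called higher and 2749 lower, so the split between the arms depended on the scaling. The edgeR quasi-likelihood test, with a median of 0.07, called 2566 higher and 2754 lower. The count of higher genes was 1322 without the first control library and 1510 without the first edited library.

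Markers of other cell types moved with the comparison. Cumulus and granulosa cells surround the oocyte in the follicle, and of 35 genes of their marker list that the deposited table holds, 28 were tested; of these 19 were lower and 2 higher in edited embryos, with 12 lower without the first edited library. Their summed level was 870.5 and 979 CPM in the edited and 3821 and 3563 CPM in the control libraries, so that both control libraries lay far above both edited ones. TIMP1, given next, and SERPINE2 held much of the control sums. SERPINE2 was at 117 and 115 CPM in the edited and 691 and 347 CPM in the control libraries. Of the 28 differences 5 were positive and 23 negative. TIMP1, an inhibitor of matrix proteases, stood at 146 and 244 CPM in the edited libraries and at 1429 and 1594 CPM in the control libraries (log2 difference -2.99 ± 0.27, adjusted p = 1.26e-06). CLU, the secreted chaperone clusterin, stood at 34.1 and 42.6 CPM in the edited libraries and at 192 and 249 CPM in the control libraries (log2 difference -2.49 ± 0.24, adjusted p = 1.66e-06). HSD3B1, an enzyme of progesterone synthesis, stood at 5.87 and 17.8 CPM in the edited libraries and at 283 and 283 CPM in the control libraries (log2 difference -4.64 ± 0.56, adjusted p = 1.07e-05). In each of these genes the groups were separated. HAS2, the synthase of the hyaluronan matrix of the expanded cumulus, went the other way, at 132 and 124 CPM in the edited libraries and at 24.3 and 55.4 CPM in the control libraries (log2 difference 1.77 ± 0.31, adjusted p = 2.60e-04). GREM1 was higher too, at 8.42 and 7.93 CPM in the edited libraries and at 3.39 and 3.34 CPM in the control libraries. PTGS2 was at 9.31 and 16.8 CPM in the edited libraries and at 9.33 and 9.44 CPM in the control libraries. FSHR, the receptor for follicle-stimulating hormone, was at 0.694 and 1.70 CPM in the edited libraries and at 3.45 and 9.68 CPM in the control libraries. The granulosa-cell transcription factor FOXL2 was at 0.231 and 0 CPM in the edited libraries and at 0.464 and 0 CPM in the control libraries, which is 16 reads or fewer per library. In the edited libraries AREG and AMHR2 had no read, and no gene of the list was without reads in all 4 libraries.

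The list of theca, stromal and matrix markers showed the same direction, with 17 of 22 tested genes lower and 1 higher. Its median was -1.96, or -0.77 with the marker covariate described below. The summed level was 1889 and 2636 CPM in the edited and 6631 and 9625 CPM in the control libraries. LUM, whose call is described below, held much of these sums, at 1282 and 1897 CPM in the edited and 2878 and 5965 CPM in the control libraries. TAGLN, an actin-binding protein of smooth muscle, stood at 99.8 and 108 CPM in the edited libraries and at 981 and 734 CPM in the control libraries (log2 difference -3.02 ± 0.24, adjusted p = 6.75e-07). TIMP2, a further protease inhibitor, stood at 30.02 and 44.9 CPM in the edited libraries and at 510.4 and 335 CPM in the control libraries (log2 difference -3.46 ± 0.27, adjusted p = 6.75e-07). SPARC, a matrix glycoprotein, stood at 116 and 187 CPM in the edited libraries and at 959 and 963 CPM in the control libraries (log2 difference -2.70 ± 0.24, adjusted p = 1.24e-06). Control levels again exceeded edited levels in all libraries. FBN1, the microfibril protein fibrillin, was the opposite case, at 106 and 68.3 CPM in the edited libraries and at 33.5 and 64.03 CPM in the control libraries (log2 difference 0.87 ± 0.31, adjusted p = 0.0297), and its adjusted p was 0.264 without the first edited and 0.323 without the first control library.

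Epithelial markers were split, with 6 of 13 tested genes lower and 1 higher, and a median of 0.13 whose sign changed in 4 alternative settings. Of the 13 differences 7 were positive and 6 negative. The summed level was 197 and 176 CPM in the edited and 529.6 and 578 CPM in the control libraries. UPK1B and KRT8 held most of this gap, so the sums do not describe the list as a whole. EPCAM, for 1, was at 31.0 and 31.1 CPM in the edited and at 20.2 and 17.6 CPM in the control libraries. UPK1B, a uroplakin, stood at 21.8 and 19.2 CPM in the edited libraries and at 279 and 331 CPM in the control libraries (log2 difference -3.83 ± 0.25, adjusted p = 3.28e-07). KRT8, a keratin of simple epithelia that is also on the granulosa list, stood at 5.35 and 5.70 CPM in the edited libraries and at 64.6 and 68.6 CPM in the control libraries (log2 difference -3.37 ± 0.43, adjusted p = 1.85e-05). SPINT2, a protease inhibitor, stood at 27.9 and 25.2 CPM in the edited libraries and at 88.2 and 75.1 CPM in the control libraries (log2 difference -1.58 ± 0.28, adjusted p = 3.09e-04). All 3 were high in both controls. CDH1, the epithelial cadherin that also joins blastomeres, stood at 74.2 and 57.8 CPM in the edited libraries and at 23.3 and 36.3 CPM in the control libraries (log2 difference 1.14 ± 0.29, adjusted p = 0.00475), with an adjusted p of 0.0577 without the first edited and 0.0523 without the first control library. CLDN7 had no read in any of the 4 libraries.

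Leukocyte and erythroid markers summed to 31.4 and 21.5 CPM in the edited and 22.1 and 18.6 CPM in the control libraries, and 1 of 4 tested genes was lower and 1 higher. MS4A1, the B-cell antigen CD20, stood at 8.88 and 8.28 CPM in the edited libraries and at 2.75 and 2.29 CPM in the control libraries (log2 difference 1.45 ± 0.49, adjusted p = 0.0230), and CD68, a macrophage protein, at 0.521 and 0.409 CPM in edited against 2.87 and 1.76 CPM in control libraries (log2 difference -1.16 ± 0.43, adjusted p = 0.0368). Neither call held when single 4-cell libraries were left out: the adjusted p of MS4A1 was then 0.0666 to 0.109 in the 4 refits, and that of CD68 was 0.105 and 0.131 without the first and the second edited library and 0.210 without the first control library. Sperm and testis markers summed to 228 and 219 CPM in the edited and 129 and 162 CPM in the control libraries, with 1 of 6 tested genes higher. That gene was LDHC, the lactate dehydrogenase of germ cells, at 167 and 169 CPM in the edited libraries and at 80.3 and 112 CPM in the control libraries (log2 difference 0.82 ± 0.23, adjusted p = 0.00959), with an adjusted p of 0.0840 without the first control library.

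Oocyte identity markers summed to 49575 and 58155 CPM in the edited and 22854 and 27807 CPM in the control libraries. BTG4 alone held 28841 and 37563 CPM of the edited and 12015 and 14925 CPM of the control sums. Of the 16 genes 6 rose, 1 fell and 9 were not called. ZP4, of the last kind, was at 1022 and 1261 CPM in the edited and at 1082 and 1491 CPM in the control libraries. The list median was 0.53, 0.09 without the first edited library and 0.14 with the marker covariate described next. The cumulus and granulosa and the stromal marker sums were lower in both edited libraries, and the oocyte sum was higher. With 2 libraries per group, any genes lower in both edited libraries share the direction of the somatic marker sums. The part of these cell types in the differences of other genes was not tested by a measurement of cell content. The marker covariate, the mean log2 level of the 28 tested cumulus and granulosa markers, was 3.05 and 3.45 in edited and 4.77 and 4.82 in control libraries. With it in the model 1 gene was called, the crystallin gene CRYBA4 (log2 difference -7.56, adjusted p = 0.0328; named because it was the sole call), and 1005 genes had an unadjusted p under 0.05, while the median SE over genes rose from 0.35 to 1.02. The plot of marker sums shows the levels in all libraries.

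**Figure D2:**
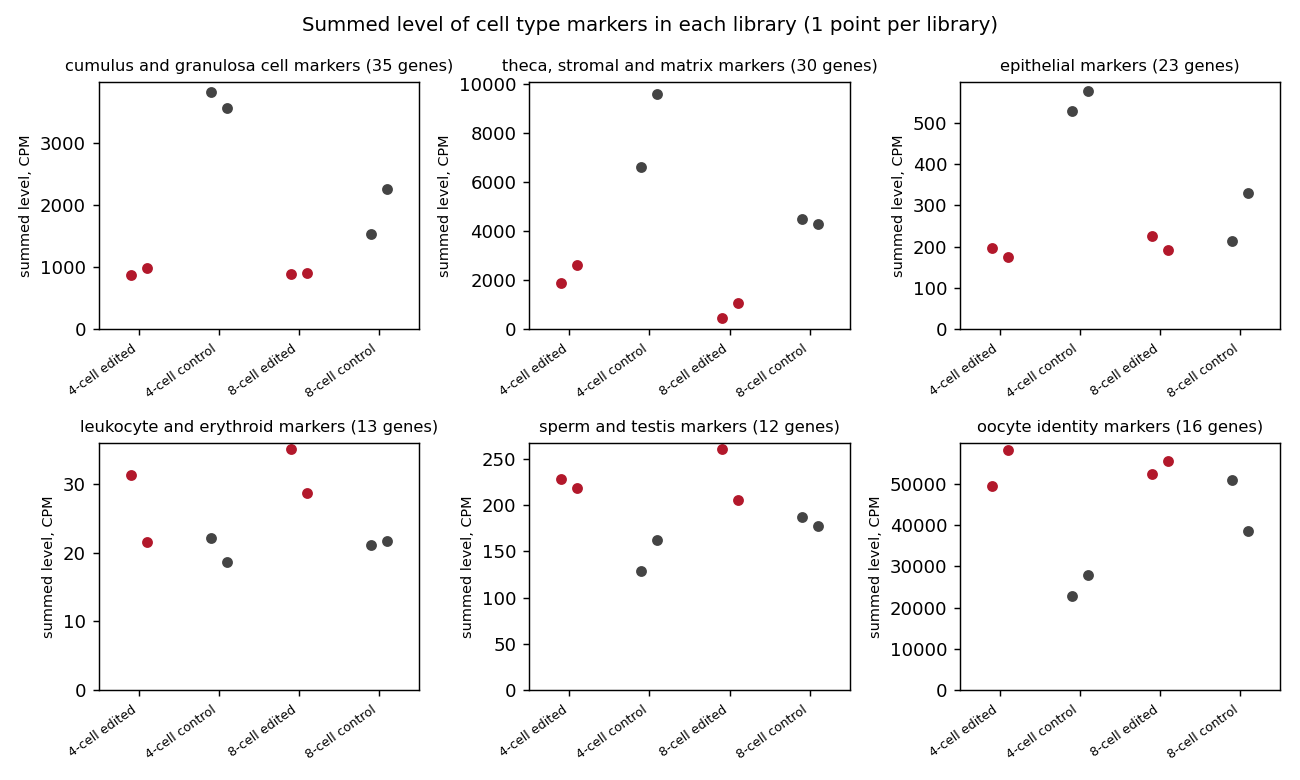
Each panel plots the summed level (CPM, linear axis from 0) of 1 list of cell type markers, with 1 point per library for the 4 groups, red for edited and dark grey for control. The cumulus and granulosa, theca and stromal, and epithelial sums are high in both 4-cell control libraries, and the oocyte identity sum is low in them. TIMP1 and SERPINE2 hold much of the cumulus and granulosa sums of the 4-cell controls. UPK1B holds much of the epithelial gap, LUM much of the stromal sum and BTG4 much of the oocyte sum.

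RPL12, the edited gene, was at 27.5 and 33.6 CPM in the edited libraries and at 159 and 174 CPM in the control libraries. Both edited libraries were far below both controls, and mean CPM was 5.45-fold lower (log2 difference -2.41 ± 0.24, adjusted p = 2.38e-06). The other cytosolic ribosomal proteins moved the same way. Of the 75 tested, 67 fell and none rose, with a median of -1.67 beside -0.04 over all genes. With the marker covariate the median of the list was -0.75. By subunit, 41 of 45 tested proteins of the large subunit fell (median -1.78) and 26 of 30 of the small subunit (median -1.50), and the 75 differences ranged from -3.00 to 0.11. RPL18, RPL3 and RPL8 are core proteins of the large subunit. RPL18 stood at 82.3 and 100.3 CPM in the edited libraries and at 741 and 627 CPM in the control libraries (log2 difference -2.89 ± 0.24, adjusted p = 9.06e-07). RPL3 stood at 73.9 and 94.3 CPM in the edited libraries and at 577 and 639 CPM in the control libraries (log2 difference -2.85 ± 0.24, adjusted p = 9.95e-07). RPL8 stood at 93.2 and 120.4 CPM in the edited libraries and at 857 and 853 CPM in the control libraries (log2 difference -3.00 ± 0.27, adjusted p = 1.19e-06). In all 3, named for their small p-values, the 2 edited libraries lay close together and far below the controls.

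Translation factors were divided. Of 45 tested, 20 fell and 4 rose, with a median of -0.46; the rises numbered 8 without the second control and 2 without the second edited library. EIF6, which keeps the large subunit from joining the small one too early, stood at 38.2 and 43.5 CPM in the edited libraries and at 344 and 343 CPM in the control libraries (log2 difference -3.05 ± 0.27, adjusted p = 1.17e-06). EIF2B2, a subunit of the exchange factor for eIF2, stood at 10.5 and 12.5 CPM in the edited libraries and at 99.2 and 84.3 CPM in the control libraries (log2 difference -2.89 ± 0.28, adjusted p = 1.71e-06). EEF1G, a subunit of the elongation factor 1 complex, stood at 71.9 and 54.5 CPM in the edited libraries and at 253 and 312 CPM in the control libraries (log2 difference -2.15 ± 0.23, adjusted p = 4.67e-06); its row is identical to that of TUT1, so the source of these reads is uncertain. In these genes both controls were high. EIF5B, the GTPase of subunit joining, went against them at 1918 and 1686 CPM in the edited libraries and at 719 and 789 CPM in the control libraries (log2 difference 1.25 ± 0.22, adjusted p = 2.64e-04). Of 11 eIF3 subunits 5 fell and 1 rose.

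Nucleolar ribosome assembly factors fell in 13 of 50 cases (26.0%, beside 26.5% of all genes) and rose in 9 (18.0%, beside 19.0%), shares near those of all genes, with a median of 0.01 whose sign changed in 4 alternative settings. Their rises numbered 4 without the first control library and 5 without either edited library. NOP16, a nucleolar protein, was at 24.7 and 31.6 CPM in the edited libraries and at 147 and 162 CPM in the control libraries (log2 difference -2.42 ± 0.25, adjusted p = 3.05e-06). POLR1C, a subunit shared by RNA polymerases I and III, was at 5.47 and 4.47 CPM in the edited libraries and at 36.3 and 25.9 CPM in the control libraries (log2 difference -2.41 ± 0.35, adjusted p = 6.03e-05). FBL, the methyltransferase fibrillarin, was at 29.3 and 21.6 CPM in the edited libraries and at 93.4 and 85.8 CPM in the control libraries (log2 difference -1.79 ± 0.26, adjusted p = 6.34e-05). These 3 were lower in both edited libraries. NMD3, the export adaptor of the large subunit, was higher at 583 and 817 CPM in the edited libraries and at 279.9 and 370.3 CPM in the control libraries (log2 difference 1.10 ± 0.23, adjusted p = 0.00120).

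Mitochondrial ribosomal proteins, which translate the mitochondrial genome's own messages, fell in 49 of 75 cases and rose in 5, or 3 without the second edited library (median -1.16). MRPL28 stood at 7.66 and 8.98 CPM in the edited libraries and at 102 and 81.4 CPM in the control libraries (log2 difference -3.31 ± 0.32, adjusted p = 1.57e-06). MRPS12 stood at 9.69 and 9.42 CPM in the edited libraries and at 116 and 91.8 CPM in the control libraries (log2 difference -3.30 ± 0.33, adjusted p = 1.92e-06). MRPL12 stood at 8.27 and 9.18 CPM in the edited libraries and at 111 and 83.5 CPM in the control libraries (log2 difference -3.33 ± 0.33, adjusted p = 2.12e-06). For each of them the controls were about 11 times the edited level. MRPL47 was an exception among them, at 278 and 320.0 CPM in the edited libraries and at 166 and 166 CPM in the control libraries (log2 difference 0.84 ± 0.20, adjusted p = 0.00320).

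Nuclear-encoded subunits of the respiratory chain and ATP synthase fell in 64 of 75 cases and none rose, though 1 did without the first control library (median -1.88, or -0.79 with the marker covariate; summed level 10082 and 9999.7 CPM in the edited and 33469 and 24889 CPM in the control libraries). All complexes took part: 32 of 38 subunits of complex I, 4 of 4 of complex II, 8 of 8 UQCR subunits of complex III, 7 of 9 COX subunits of complex IV and 13 of 15 subunits of ATP synthase were lower. NDUFB11, of complex I, stood at 25.9 and 37.7 CPM in the edited libraries and at 392 and 306 CPM in the control libraries (log2 difference -3.43 ± 0.30, adjusted p = 1.08e-06). SDHB, the iron-sulfur subunit of complex II, stood at 67.7 and 74.8 CPM in the edited libraries and at 529 and 395 CPM in the control libraries (log2 difference -2.67 ± 0.24, adjusted p = 1.17e-06). UQCRFS1, the Rieske protein of complex III, stood at 42.4 and 68.4 CPM in the edited libraries and at 559 and 402 CPM in the control libraries (log2 difference -3.11 ± 0.28, adjusted p = 1.24e-06). The edited libraries lay well below both controls in each.

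Glycolytic enzymes and hexose or lactate carriers showed the deepest median of the metabolic lists, -2.35 (-0.79 with the marker covariate), with 17 of 23 lower and 1 higher, and a summed level of 2286 and 3029 CPM in the edited and 12301 and 12367 CPM in the control libraries. ENO1, the enolase, stood at 97.3 and 138 CPM in the edited libraries and at 2314 and 1994 CPM in the control libraries (log2 difference -4.20 ± 0.33, adjusted p = 6.75e-07). TPI1, the triosephosphate isomerase, stood at 10.6 and 16.3 CPM in the edited libraries and at 233 and 196 CPM in the control libraries (log2 difference -3.92 ± 0.35, adjusted p = 1.17e-06). PGAM1, the phosphoglycerate mutase, stood at 83.9 and 101 CPM in the edited libraries and at 646 and 527 CPM in the control libraries (log2 difference -2.65 ± 0.25, adjusted p = 1.36e-06). These enzymes act in consecutive or neighbouring steps of the pathway, and all were high in both controls. PDK1, the kinase that inhibits pyruvate dehydrogenase, was higher in edited embryos, at 103 and 112 CPM in the edited libraries and at 33.1 and 37.7 CPM in the control libraries (log2 difference 1.58 ± 0.24, adjusted p = 8.60e-05).

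Antioxidant enzymes fell in 20 of 33 cases, and 1 rose (median -1.12, or -0.41 with the marker covariate). GPX1, a glutathione peroxidase, stood at 93.3 and 129 CPM in the edited libraries and at 2076 and 1369 CPM in the control libraries (log2 difference -3.93 ± 0.35, adjusted p = 1.24e-06). GPX4, which reduces lipid peroxides, stood at 103 and 107 CPM in the edited libraries and at 631 and 488 CPM in the control libraries (log2 difference -2.39 ± 0.23, adjusted p = 1.82e-06). PRDX4, a peroxiredoxin of the endoplasmic reticulum, stood at 63.1 and 79.8 CPM in the edited libraries and at 474 and 343 CPM in the control libraries (log2 difference -2.49 ± 0.24, adjusted p = 1.83e-06). None of these groups overlapped. NQO1, a quinone reductase, was higher, at 84.6 and 86.95 CPM in the edited libraries and at 28.3 and 47.7 CPM in the control libraries (log2 difference 1.20 ± 0.26, adjusted p = 0.00171).

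Proteasome subunits fell in 24 of 31 cases and none rose (median -1.28). The beta ring of the core, which holds the proteolytic sites, was lower in 6 of 6 subunits, the alpha ring in 4 of 7, the ATPases of the regulatory cap in 5 of 6 and its non-ATPase subunits in 7 of 10. PSMC3, an ATPase, stood at 67.1 and 62.8 CPM in the edited libraries and at 477 and 389 CPM in the control libraries (log2 difference -2.71 ± 0.22, adjusted p = 8.44e-07). PSMB6, a catalytic subunit whose row is identical to that of GLTPD2 and hence uncertain, stood at 86.1 and 94.4 CPM in the edited libraries and at 960.3 and 642 CPM in the control libraries (log2 difference -3.11 ± 0.26, adjusted p = 9.06e-07). PSMD8, of the lid, stood at 19.1 and 17.96 CPM in the edited libraries and at 164 and 121 CPM in the control libraries (log2 difference -2.86 ± 0.26, adjusted p = 1.26e-06). The alpha ring members PSMA5 and PSMA6 were among the 5 genes of highest mean level whose 95% interval lay within 0.5 of 0. PSMA5 was at 2229.7 and 2138 CPM in the edited libraries and at 2165 and 2105 CPM in the control libraries, a difference of 0.03 with a 95% interval of -0.41 to 0.47. PSMA6 was at 889.8 and 848 CPM in the edited libraries and at 952 and 827 CPM in the control libraries, a difference of -0.03 with an interval of -0.45 to 0.39. Subunits of the same particle thus showed unequal changes.

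Heat shock proteins and chaperones of the endoplasmic reticulum fell in 20 of 43 cases and rose in 3 (median -0.53, or -0.84 with the marker covariate). None of the rises was called without the first control library and 1 without the first edited one. CCT6A, of the chaperonin that folds actin and tubulin, stood at 47.1 and 68.7 CPM in the edited libraries and at 252 and 304 CPM in the control libraries (log2 difference -2.26 ± 0.25, adjusted p = 4.61e-06). CALR, calreticulin, stood at 50.8 and 68.9 CPM in the edited libraries and at 241 and 234 CPM in the control libraries (log2 difference -1.98 ± 0.23, adjusted p = 7.71e-06). HSPB1, a small heat shock protein, stood at 23.4 and 26.1 CPM in the edited libraries and at 336 and 147 CPM in the control libraries (log2 difference -3.12 ± 0.36, adjusted p = 8.33e-06). HSPA8, the constitutive HSP70, was among the 10 genes with the most reads in control embryos and stood at 976 and 1593 CPM in the edited libraries and at 4779 and 5464 CPM in the control libraries (log2 difference -2.03 ± 0.24, adjusted p = 9.83e-06). All were lower in both edited libraries. DDIT3, a transcription factor of the unfolded protein response, was higher, at 476 and 344 CPM in the edited libraries and at 228 and 256 CPM in the control libraries (log2 difference 0.74 ± 0.22, adjusted p = 0.0131), with an adjusted p of 0.139 without the first edited and 0.0588 without the first control library.

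Genes of protein translocation and coated vesicles fell in 27 of 53 cases and rose in 4 (median -0.67). DDOST, a subunit of the oligosaccharyltransferase, stood at 36.9 and 35.7 CPM in the edited libraries and at 325 and 268 CPM in the control libraries (log2 difference -2.99 ± 0.22, adjusted p = 6.20e-07). TMED3, a cargo receptor, stood at 13.1 and 18.5 CPM in the edited libraries and at 187 and 143 CPM in the control libraries (log2 difference -3.31 ± 0.28, adjusted p = 9.22e-07). SSR2, of the translocon-associated complex, stood at 60.02 and 67.6 CPM in the edited libraries and at 411 and 404 CPM in the control libraries (log2 difference -2.66 ± 0.23, adjusted p = 9.95e-07). The control libraries were high in each. SEC63, which drives translocation with the luminal HSP70, was higher at 212 and 205 CPM in the edited libraries and at 42.2 and 92.4 CPM in the control libraries (log2 difference 1.72 ± 0.30, adjusted p = 2.77e-04).

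Lysosomal genes fell in 23 of 35 cases and none rose (median -1.89, or -0.96 with the marker covariate), among them 8 of 10 cathepsins and 9 of 15 ATP6 genes of the proton pump. CD63, a tetraspanin of late endosomes, stood at 314 and 358 CPM in the edited libraries and at 2688 and 1883 CPM in the control libraries (log2 difference -2.74 ± 0.22, adjusted p = 6.75e-07). ATP6V0D1, of the pump's membrane sector, stood at 46.8 and 44.3 CPM in the edited libraries and at 391 and 433 CPM in the control libraries (log2 difference -3.15 ± 0.27, adjusted p = 1.05e-06). CST3, the cathepsin inhibitor cystatin C, stood at 33.6 and 36.03 CPM in the edited libraries and at 461 and 270.0 CPM in the control libraries (log2 difference -3.30 ± 0.30, adjusted p = 1.26e-06). CTSL, a cysteine protease, was nearly undetected in edited embryos, at 0 and 0.643 CPM in the edited libraries and at 35.6 and 25.7 CPM in the control libraries (log2 difference -4.61 ± 0.44, adjusted p = 1.54e-06), which is 0 and 22 reads against 1229 and 875. Annexins, S100 proteins, galectins and calmodulins fell in 15 of 23 cases and rose in 1 (median -1.90, or -0.88 with the marker covariate). ANXA2 and ANXA5 bind membrane phospholipids when calcium rises. ANXA2 stood at 216 and 365 CPM in the edited libraries and at 3236 and 2708 CPM in the control libraries (log2 difference -3.40 ± 0.26, adjusted p = 6.75e-07). ANXA5 stood at 127 and 183 CPM in the edited libraries and at 859 and 669.6 CPM in the control libraries (log2 difference -2.31 ± 0.24, adjusted p = 2.55e-06). S100A16 stood at 17.7 and 15.6 CPM in the edited libraries and at 143 and 107 CPM in the control libraries (log2 difference -2.82 ± 0.28, adjusted p = 2.02e-06). CALM2, a calmodulin gene, was higher, at 4776 and 7076 CPM in the edited libraries and at 3888 and 3197 CPM in the control libraries (log2 difference 0.72 ± 0.24, adjusted p = 0.0239), with an adjusted p of 0.218 without the second edited and 0.120 without the second control library.

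The cytoskeleton lists went apart. Actin and actin-binding genes fell in 27 of 44 cases and rose in 1 (median -1.44). ACTB, cytoplasmic beta-actin, stood at 445 and 451 CPM in the edited libraries and at 4826 and 4014 CPM in the control libraries (log2 difference -3.29 ± 0.23, adjusted p = 5.44e-07). MYL6, a myosin light chain, stood at 241 and 308 CPM in the edited libraries and at 1841 and 1911 CPM in the control libraries (log2 difference -2.78 ± 0.22, adjusted p = 6.75e-07). TAGLN, given above, had the second smallest p-value of the list and is also on the stromal list. RDX, which links actin to the cell membrane, was the gene that rose, at 315 and 329 CPM in the edited libraries and at 89.6 and 90.2 CPM in the control libraries (log2 difference 1.83 ± 0.21, adjusted p = 5.97e-06). TMSB4X, the actin-sequestering thymosin, took the second most reads in edited embryos and did not pass, at 18709 and 15825 CPM in the edited libraries and at 16405 and 9987 CPM in the control libraries (log2 difference 0.43 ± 0.27, adjusted p = 0.221); its row is identical to that of TMSB4.

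Kinesins, tubulins and spindle proteins had the highest median of the lists, 0.82 (0.49 with the marker covariate), with 30 of 52 higher and 7 lower. The split followed the kind of protein. Tubulins fell in 6 of 8 cases and none rose, whereas 10 of 15 kinesins, 7 of 9 CEP proteins of the centrosome and 13 of 20 other spindle, kinetochore and centrosome proteins rose, with 1 kinesin lower. These subgroups were formed after the values had been seen. TUBB6 stood at 13.5 and 16.3 CPM in the edited libraries and at 206 and 196 CPM in the control libraries (log2 difference -3.67 ± 0.30, adjusted p = 6.96e-07). TUBA1A stood at 80.5 and 154 CPM in the edited libraries and at 842 and 1223 CPM in the control libraries (log2 difference -3.17 ± 0.29, adjusted p = 1.31e-06). TUBB stood at 24.6 and 32.7 CPM in the edited libraries and at 253 and 307 CPM in the control libraries (log2 difference -3.25 ± 0.30, adjusted p = 1.37e-06). These tubulins were high in both controls. SPC25, of the NDC80 kinetochore complex, was the reverse, at 254 and 224 CPM in the edited libraries and at 59.5 and 58.6 CPM in the control libraries (log2 difference 2.00 ± 0.23, adjusted p = 6.62e-06).

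Cell cycle regulators rose in 20 of 55 cases and fell in 8 (median 0.43, or 0.24 without the first edited library), on a list that also holds CDH1 by its symbol. The falls on this list numbered 4 and 5 without the first and the second control library and 3 without the second edited library. CCND2, a cyclin of the G1 phase, stood at 3.82 and 4.94 CPM in the edited libraries and at 74.5 and 66.9 CPM in the control libraries (log2 difference -3.74 ± 0.35, adjusted p = 1.30e-06). CDK4, the kinase it activates, stood at 7.95 and 7.46 CPM in the edited libraries and at 73.5 and 74.2 CPM in the control libraries (log2 difference -3.10 ± 0.30, adjusted p = 1.54e-06). CKS2, a small partner of the mitotic kinase CDK1, stood at 3245 and 2548 CPM in the edited libraries and at 883 and 762 CPM in the control libraries (log2 difference 1.81 ± 0.22, adjusted p = 1.29e-05). The G1 pair was thus high in controls and CKS2 in edited embryos. PTTG1, the securin that guards sister chromatid cohesion, stood at 13267 and 12991 CPM in the edited libraries and at 5629 and 7281 CPM in the control libraries (log2 difference 1.04 ± 0.25, adjusted p = 0.00289); its row is identical to that of LOC508043, and under quantile normalization its difference was 0.18 (adjusted p = 0.577).

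DNA repair genes rose in 20 of 52 cases (38.5%, beside 19.0% of all genes) and fell in 4 (7.69%, beside 26.5%), with a median of 0.32, or 0.18 with the marker covariate. Rises among them numbered 11 without the first control and 13 without the second edited library, and the median was 0.61 without the second control or the second edited library. BRCA2, a DNA repair protein that also acts as a tumour suppressor, stood at 244 and 384 CPM in the edited libraries and at 88.4 and 107 CPM in the control libraries (log2 difference 1.65 ± 0.25, adjusted p = 9.61e-05). RAD50, of the complex that senses broken ends, stood at 689 and 669 CPM in the edited libraries and at 213 and 293 CPM in the control libraries (log2 difference 1.44 ± 0.23, adjusted p = 1.41e-04). Both were higher in the edited libraries without overlap. APEX1, the endonuclease of abasic sites, was lower at 131 and 121 CPM in the edited libraries and at 325 and 367 CPM in the control libraries (log2 difference -1.45 ± 0.21, adjusted p = 6.32e-05). The list of p53, its regulators and targets had 9 of 32 genes higher (28.1%, beside 19.0% of all genes) and 10 lower (31.2%, beside 26.5%), near the shares of all genes, and a median of 0.15 whose sign changed in 3 alternative settings. Its higher genes numbered 5 without the first control or the first edited library, and its lower genes 6 without the first control library. TP53INP1, a stress-induced p53 target, stood at 315 and 296 CPM in the edited libraries and at 72.03 and 88.3 CPM in the control libraries (log2 difference 1.92 ± 0.21, adjusted p = 5.12e-06). SERTAD1, a transcriptional regulator, stood at 9.17 and 9.51 CPM in the edited libraries and at 94.98 and 55.5 CPM in the control libraries (log2 difference -2.83 ± 0.34, adjusted p = 1.02e-05). FDXR, a mitochondrial ferredoxin reductase, stood at 4.25 and 1.84 CPM in the edited libraries and at 44.7 and 38.1 CPM in the control libraries (log2 difference -3.45 ± 0.42, adjusted p = 1.29e-05).

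Apoptosis regulators fell in 12 of 30 cases and rose in 4 (median -0.55, or -0.15 with the marker covariate). The falls numbered 7 without the first edited library and the rises 2 without the first control library. DIABLO, which antagonises the inhibitors of caspases, stood at 7.69 and 11.9 CPM in the edited libraries and at 79.2 and 61.95 CPM in the control libraries (log2 difference -2.74 ± 0.32, adjusted p = 7.84e-06). BNIP3L, a mitophagy receptor, stood at 138 and 152 CPM in the edited libraries and at 467 and 444 CPM in the control libraries (log2 difference -1.64 ± 0.21, adjusted p = 1.69e-05). BID, a pro-apoptotic BH3 protein, stood at 6.54 and 7.25 CPM in the edited libraries and at 47.6 and 50.1 CPM in the control libraries (log2 difference -2.66 ± 0.36, adjusted p = 3.27e-05). All 3 were lower in edited embryos. XIAP, an inhibitor of caspases, was higher at 138 and 113 CPM in the edited libraries and at 41.5 and 55.8 CPM in the control libraries (log2 difference 1.36 ± 0.24, adjusted p = 2.86e-04).

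Histone-modifying enzymes and polycomb proteins rose in 20 of 59 cases (33.9%, beside 19.0% of all genes) and fell in 9 (15.3%, beside 26.5%). Their median was 0.32, or 0.14 with the marker covariate. These rises numbered 12 without the first control library and 8 without the first edited library, and the median was 0.18 without the first and 0.59 without the second edited library. PCGF6, of a variant polycomb complex, stood at 70.1 and 69.8 CPM in the edited libraries and at 18.5 and 20.8 CPM in the control libraries (log2 difference 1.79 ± 0.25, adjusted p = 5.00e-05). HDAC3, a histone deacetylase, stood at 43.99 and 49.3 CPM in the edited libraries and at 267 and 241 CPM in the control libraries (log2 difference -2.42 ± 0.24, adjusted p = 1.83e-06). PRMT1, the main arginine methyltransferase, stood at 59.8 and 43.5 CPM in the edited libraries and at 151 and 125 CPM in the control libraries (log2 difference -1.41 ± 0.26, adjusted p = 4.05e-04). PCGF6 was high in edited and the other two in control libraries. Histone genes and their chaperones fell in 7 of 25 cases (28.0%, beside 26.5% of all genes) and rose in 5 (20%, beside 19.0%), shares near those of all genes, with a median of 0.10 whose sign changed in 3 alternative settings. The 5 rises became 9 without the first control library and 2 without the first edited library. H2AZ1, a replacement histone, stood at 177 and 169 CPM in the edited libraries and at 662 and 854 CPM in the control libraries (log2 difference -2.11 ± 0.24, adjusted p = 6.52e-06). H2AZ2, its close relative, stood at 95.04 and 86.3 CPM in the edited libraries and at 319 and 239 CPM in the control libraries (log2 difference -1.60 ± 0.23, adjusted p = 6.52e-05). H2AJ stood at 4.92 and 6.84 CPM in the edited libraries and at 80.2 and 47.9 CPM in the control libraries (log2 difference -3.21 ± 0.39, adjusted p = 1.19e-05). These variants were low in edited embryos, while ATRX, a chromatin remodeller that deposits H3.3, was higher at 428 and 484 CPM in the edited libraries and at 144 and 228 CPM in the control libraries (log2 difference 1.32 ± 0.26, adjusted p = 6.37e-04).

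DNA methylation genes rose in 4 of 16 cases and fell in 4 (25% in each direction, beside 19.0% higher and 26.5% lower of all genes), with a median of 0.04 whose sign changed in 4 alternative settings. The falls numbered 2 without either control library and 1 without the second edited library. DPPA3, a maternal factor that protects the zygote's maternal genome from demethylation, stood at 4873 and 6092 CPM in the edited libraries and at 1016 and 1962 CPM in the control libraries (log2 difference 1.95 ± 0.29, adjusted p = 6.43e-05). UHRF2, a reader of hemimethylated or hydroxymethylated DNA, stood at 691 and 651 CPM in the edited libraries and at 201 and 291 CPM in the control libraries (log2 difference 1.46 ± 0.24, adjusted p = 1.41e-04). MBD1, a methyl-CpG-binding repressor whose row is identical to that of CFAP53 and hence uncertain, stood at 110.2 and 101 CPM in the edited libraries and at 52.1 and 59.2 CPM in the control libraries (log2 difference 0.91 ± 0.23, adjusted p = 0.00417). Edited libraries were higher in these 3. TDG, the glycosylase of active demethylation, was lower at 3.21 and 9.77 CPM in the edited libraries and at 15.01 and 18.4 CPM in the control libraries (log2 difference -1.39 ± 0.42, adjusted p = 0.0137), with an adjusted p of 0.176 without the first edited and 0.0766 without the second control library.

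The RNA polymerase II machinery had 13 of 67 genes higher (19.4%, beside 19.0% of all genes) and 15 lower (22.4%, beside 26.5%), shares near those of all genes. Its median was 0.28, or 0.18 without the first edited library, which left 8 genes higher, and -0.02 with the marker covariate. Of 11 POLR2 subunits 6 fell and 1 rose, and of 17 Mediator subunits 2 fell and 4 rose. POLR2E, a subunit shared by all 3 nuclear polymerases, stood at 45.4 and 38.5 CPM in the edited libraries and at 237 and 212 CPM in the control libraries (log2 difference -2.40 ± 0.25, adjusted p = 3.19e-06). NELFE, of the pausing factor NELF, stood at 22.01 and 18.9 CPM in the edited libraries and at 138 and 106 CPM in the control libraries (log2 difference -2.51 ± 0.26, adjusted p = 3.32e-06). SUPT4H1, of the elongation factor DSIF, stood at 28.3 and 34.2 CPM in the edited libraries and at 124 and 201 CPM in the control libraries (log2 difference -2.30 ± 0.27, adjusted p = 9.91e-06). These were high in both controls, whereas GTF2A1, a subunit of TFIIA, was higher in edited embryos at 94.6 and 79.4 CPM in the edited libraries and at 16.4 and 22.96 CPM in the control libraries (log2 difference 2.10 ± 0.27, adjusted p = 1.71e-05). Numbered zinc finger genes rose in 46 of 212 cases (21.7%, beside 19.0% of all genes) and fell in 27 (12.7%, beside 26.5%), with 22 rises without the first control library. ZNF260 stood at 201 and 228 CPM in the edited libraries and at 53.3 and 81.5 CPM in the control libraries (log2 difference 1.69 ± 0.24, adjusted p = 5.15e-05). ZNF214 stood at 28.3 and 22.1 CPM in the edited libraries and at 3.80 and 6.10 CPM in the control libraries (log2 difference 2.16 ± 0.34, adjusted p = 1.20e-04). Both were higher in the edited libraries, and ZNF385B was lower at 18.4 and 33.9 CPM in the edited libraries and at 247 and 153 CPM in the control libraries (log2 difference -2.91 ± 0.30, adjusted p = 3.19e-06).

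Splicing factors and snRNP proteins fell in 23 of 68 cases (33.8%, beside 26.5% of all genes) and rose in 12 (17.6%, beside 19.0%), or 7 without the first edited library, with a median of -0.38. SRSF3, a serine- and arginine-rich splicing factor, stood at 123 and 126 CPM in the edited libraries and at 621 and 577 CPM in the control libraries (log2 difference -2.26 ± 0.21, adjusted p = 1.26e-06). SNRPB, an Sm protein, stood at 83.5 and 75.5 CPM in the edited libraries and at 516 and 457 CPM in the control libraries (log2 difference -2.60 ± 0.24, adjusted p = 1.26e-06). HNRNPK, a poly(C)-binding protein, stood at 88.3 and 84.1 CPM in the edited libraries and at 338 and 335 CPM in the control libraries (log2 difference -1.95 ± 0.21, adjusted p = 4.47e-06). Another Sm protein, SNRPF, moved against them, at 1351 and 1002 CPM in the edited libraries and at 439 and 299 CPM in the control libraries (log2 difference 1.68 ± 0.24, adjusted p = 6.02e-05). The nuclear pore and transport list rose in 15 of 46 cases and fell in 6 (median 0.28, and 0.12 with 9 rises without the first control library), with 9 of 19 NUP genes higher and none lower. NUP37 stood at 322 and 419 CPM in the edited libraries and at 67.6 and 141 CPM in the control libraries (log2 difference 1.90 ± 0.29, adjusted p = 9.65e-05). NUP54 stood at 390.0 and 487 CPM in the edited libraries and at 152 and 207 CPM in the control libraries (log2 difference 1.29 ± 0.23, adjusted p = 3.12e-04). NUP35 stood at 1549.6 and 2023 CPM in the edited libraries and at 561 and 838 CPM in the control libraries (log2 difference 1.37 ± 0.25, adjusted p = 4.47e-04). Edited libraries were above controls in all of these nucleoporins, and SEC13, shared by the pore and the COPII coat, was lower at 187 and 132 CPM in the edited libraries and at 338 and 363 CPM in the control libraries (log2 difference -1.15 ± 0.22, adjusted p = 5.73e-04).

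The series is titled for a map of m6A, the most common internal mark of messenger RNA, in bovine oocytes and embryos. Of 26 tested writers, erasers and readers of m6A, 9 rose and 4 fell (median 0.46, or 0.21 with the marker covariate and 0.30 without the first edited library). IGF2BP3, a reader that stabilises marked messages, stood at 466 and 519.5 CPM in the edited libraries and at 153 and 214 CPM in the control libraries (log2 difference 1.44 ± 0.22, adjusted p = 9.30e-05). YTHDF2, a reader that leads marked messages to decay, stood at 32.02 and 29.7 CPM in the edited libraries and at 113 and 101 CPM in the control libraries (log2 difference -1.76 ± 0.24, adjusted p = 3.39e-05). HNRNPA2B1, a nuclear RNA-binding protein, stood at 128 and 134 CPM in the edited libraries and at 414 and 368 CPM in the control libraries (log2 difference -1.57 ± 0.21, adjusted p = 2.92e-05). The readers hence moved in opposite directions, without overlap between the groups.

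Machinery that removes maternal messages rose in 14 of 43 cases and fell in 6 (median 0.50, or 0.22 without the first control and 0.33 without the first edited library). BTG4, the adaptor that brings the CCR4-NOT deadenylase to maternal messages, took the most reads of all genes in edited embryos and stood at 28841 and 37563 CPM in the edited libraries and at 12015 and 14925 CPM in the control libraries (log2 difference 1.30 ± 0.28, adjusted p = 0.00142). Its difference was 0.33 under quantile normalization (adjusted p = 0.352), and its adjusted p was 0.0576 with no filter on low values. CNOT6L, a catalytic subunit of the deadenylase, stood at 337 and 318 CPM in the edited libraries and at 52.5 and 102 CPM in the control libraries (log2 difference 2.14 ± 0.27, adjusted p = 1.45e-05). CNOT6, its paralogue, stood at 61.3 and 56.3 CPM in the edited libraries and at 12.9 and 18.3 CPM in the control libraries (log2 difference 1.87 ± 0.28, adjusted p = 6.96e-05). Of the 11 CNOT genes 6 rose and 2 fell. EXOSC4, a subunit of the RNA exosome, was low in edited embryos, at 18.9 and 19.7 CPM in the edited libraries and at 182 and 119.7 CPM in the control libraries (log2 difference -2.87 ± 0.30, adjusted p = 3.20e-06).

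Genes of maternal message storage and translational control rose in 16 of 40 cases and fell in 2 (median 0.46, or 0.26 with the marker covariate). Leaving out the first edited library gave 10 rises and a median of 0.29. NANOS1, a translational repressor, stood at 307 and 298 CPM in the edited libraries and at 68.5 and 95.6 CPM in the control libraries (log2 difference 1.89 ± 0.25, adjusted p = 2.92e-05). YBX3, a cold-shock-domain RNA-binding protein, was lower at 11.5 and 10.6 CPM in the edited libraries and at 65.6 and 49.5 CPM in the control libraries (log2 difference -2.27 ± 0.32, adjusted p = 4.24e-05). PAIP1, which binds poly(A)-binding protein, is on no list but took many reads in edited embryos, at 10131 and 15669 CPM in the edited libraries and at 2768 and 5898 CPM in the control libraries (log2 difference 1.64 ± 0.33, adjusted p = 9.47e-04). THAP9, a transposase-derived protein, was likewise among the 10 genes with the most reads in edited embryos, at 4553 and 6181 CPM in the edited libraries and at 3675 and 3789 CPM in the control libraries (log2 difference 0.51 ± 0.24, adjusted p = 0.0972), and did not pass. Such reads also depend on transcript length.

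Oocyte genes rose in 13 of 40 cases and fell in 4 (median 0.46, or 0.25 with the marker covariate). Leaving out the first edited library gave 5 rises and a median of 0.11, and leaving out the first control library gave 6 rises; the falls numbered 2 without the first control or the second edited library. OOSP2, an oocyte-secreted protein, had the second largest rise among genes whose mean reached 10 CPM, at 6669 and 6196 CPM in the edited libraries and at 674 and 1189 CPM in the control libraries (log2 difference 2.84 ± 0.26, adjusted p = 1.24e-06). Every edited library was several times above every control. UCHL1, a deubiquitinating enzyme abundant in oocytes and neurons, was the reverse, at 333 and 399 CPM in the edited libraries and at 3573 and 2129 CPM in the control libraries (log2 difference -2.92 ± 0.27, adjusted p = 1.26e-06). CD9, the egg tetraspanin of sperm fusion, which other cells express too, was lower at 50.4 and 57.9 CPM in the edited libraries and at 296 and 194 CPM in the control libraries (log2 difference -2.13 ± 0.27, adjusted p = 1.94e-05). Members of the oocyte lists were thus not uniform.

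The list of genes switched on at or after genome activation was only partly measurable. Of 40 listed 24 are in the table and 14 were tested, of which 4 rose and 5 fell (28.6% and 35.7%, beside 19.0% and 26.5% of all genes), with a median of 0.00 whose sign changed in 9 alternative settings. Of these rises 2 were called without the first control or the second edited library, and of the falls 3 without the second control or the first edited library. KLF4, a zinc finger transcription factor, stood at 14.7 and 13.9 CPM in the edited libraries and at 2.55 and 2.02 CPM in the control libraries (log2 difference 2.23 ± 0.36, adjusted p = 1.55e-04). EIF1AD stood at 20.1 and 23.02 CPM in the edited libraries and at 71.97 and 70.2 CPM in the control libraries (log2 difference -1.68 ± 0.27, adjusted p = 1.51e-04). EIF1AX, the initiation factor that scans with the small subunit, stood at 138 and 141 CPM in the edited libraries and at 434 and 294 CPM in the control libraries (log2 difference -1.35 ± 0.24, adjusted p = 2.77e-04). KLF4 was high in both edited libraries and the other two in both controls.

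Interferon-stimulated genes and sensors of viral RNA were among the lists with the deepest fall. Of 46 tested, 37 fell and none rose, with a median of -2.16, and their summed level was 1737 and 2132 CPM in the edited and 20038 and 12968 CPM in the control libraries. IFI27, a mitochondrial interferon-induced protein, stood at 98.7 and 124 CPM in the edited libraries and at 3934 and 2518 CPM in the control libraries (log2 difference -4.82 ± 0.26, adjusted p = 5.31e-08). OAS1Y, which activates RNase L when it binds double-stranded RNA, stood at 66.2 and 117 CPM in the edited libraries and at 1199 and 1052 CPM in the control libraries (log2 difference -3.66 ± 0.26, adjusted p = 5.72e-07). ISG15, a ubiquitin-like modifier, stood at 82.3 and 92.2 CPM in the edited libraries and at 1565 and 843 CPM in the control libraries (log2 difference -3.71 ± 0.32, adjusted p = 9.95e-07). In these genes every control library was far above every edited library. IFI6 had the fourth most reads among rows of the control embryos and stood at 449 and 611 CPM in the edited libraries and at 9141 and 4734 CPM in the control libraries (log2 difference -3.65 ± 0.32, adjusted p = 1.17e-06). Antigen presentation genes fell in 15 of 19 cases and none rose (median -2.38, or -1.30 with the marker covariate). PSME2, PSMB9 and PSMB10 belong to the immunoproteasome and its activator. PSME2 stood at 39.6 and 56.3 CPM in the edited libraries and at 469.9 and 351 CPM in the control libraries (log2 difference -3.08 ± 0.24, adjusted p = 6.75e-07). PSMB9 stood at 18.6 and 23.1 CPM in the edited libraries and at 322 and 214 CPM in the control libraries (log2 difference -3.60 ± 0.33, adjusted p = 1.24e-06). PSMB10 stood at 4.17 and 6.76 CPM in the edited libraries and at 110.0 and 74.8 CPM in the control libraries (log2 difference -3.86 ± 0.38, adjusted p = 1.92e-06). These too were separated without overlap.

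Immediate early genes and stress-activated regulators fell in 13 of 25 cases and rose in 1 (median -1.36, or -0.36 with the marker covariate). ID1 and ID2 inhibit basic helix-loop-helix factors and respond to BMP signals. ID2 stood at 14.5 and 13.9 CPM in the edited libraries and at 146 and 142 CPM in the control libraries (log2 difference -3.26 ± 0.32, adjusted p = 1.73e-06). ID1 stood at 1.33 and 2.25 CPM in the edited libraries and at 64.5 and 46.2 CPM in the control libraries (log2 difference -4.34 ± 0.49, adjusted p = 5.97e-06). SGK1, a kinase induced by serum and glucocorticoid, stood at 3.27 and 7.81 CPM in the edited libraries and at 55.9 and 128 CPM in the control libraries (log2 difference -3.81 ± 0.40, adjusted p = 3.19e-06). The controls were high in all 3. HES1, a Notch target, was higher in edited embryos, at 183 and 100.5 CPM in the edited libraries and at 81.8 and 58.9 CPM in the control libraries (log2 difference 0.96 ± 0.29, adjusted p = 0.0130), with an adjusted p of 0.198 without the first edited and 0.0788 without the second control library. The plot of gene lists sets their medians side by side.

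**Figure D3:**
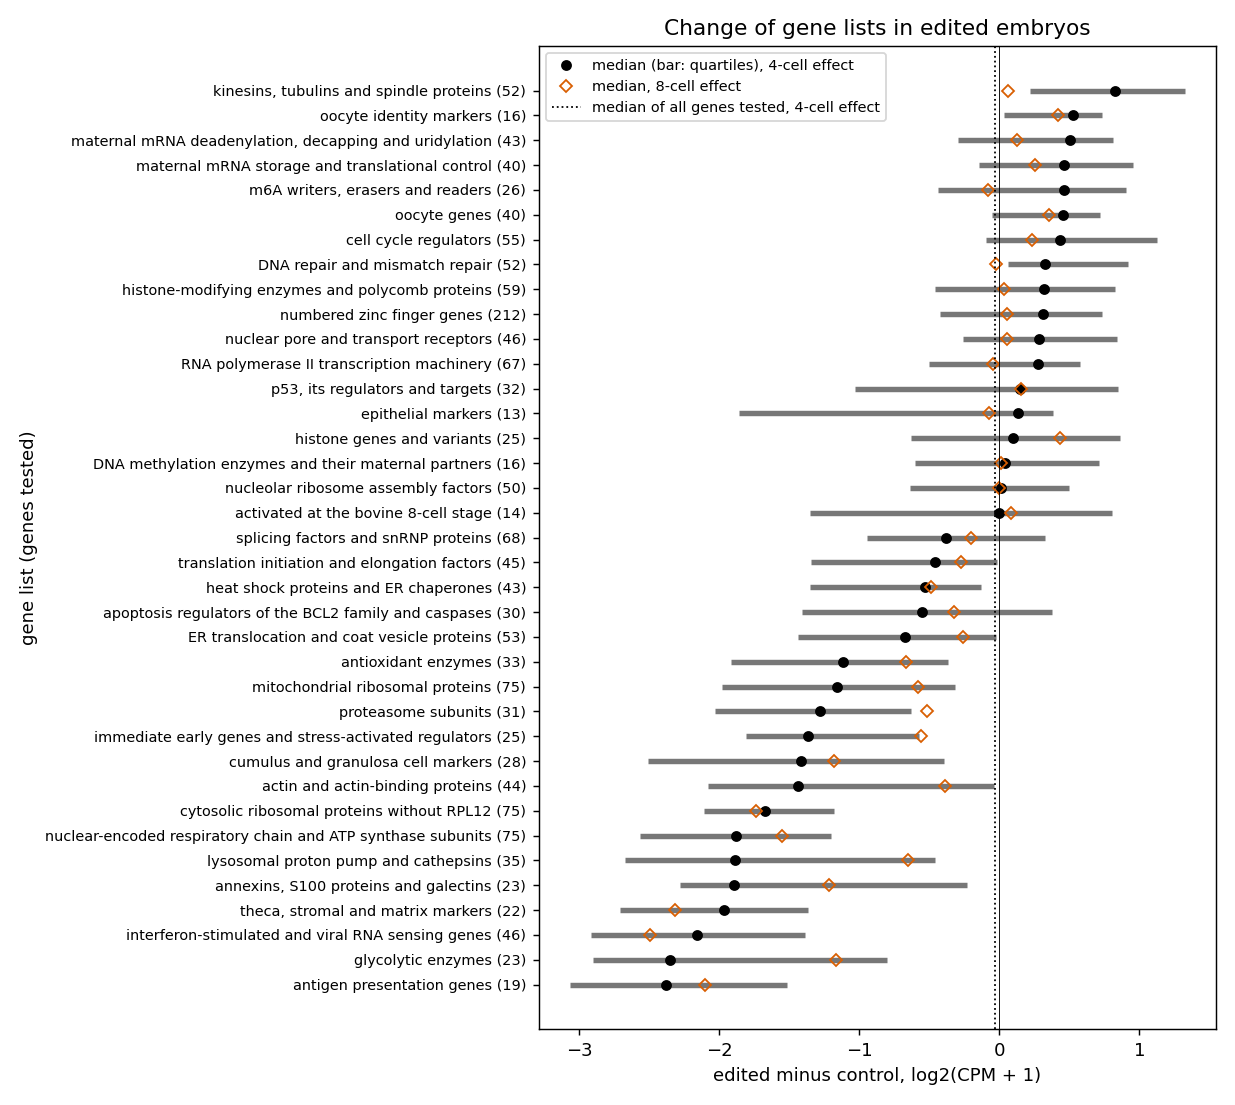
Black dots are the median 4-cell difference of each gene list (edited minus control, log2(CPM + 1)) with bars from the lower to the upper quartile over its tested genes (number in brackets), open diamonds are the median 8-cell difference, and the dotted line is the median of all genes tested at the 4-cell stage. Lists of 10 or more tested genes are shown; antigen presentation and glycolytic genes lie lowest and kinesins, tubulins and spindle proteins highest, and the sign of the medians of the nucleolar, p53, DNA methylation, histone, epithelial, 8-cell activated and RNA polymerase II lists changed in at least 1 alternative setting.

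OOSP2, given above, was 1 of the 10 genes with the largest rise. TEX12, a protein of the synaptonemal complex of meiosis, was at 91.7 and 94.97 CPM in the edited libraries and at 6.61 and 20.2 CPM in the control libraries (log2 difference 2.89 ± 0.41, adjusted p = 4.46e-05). TSPAN19, a tetraspanin, was at 74.7 and 114 CPM in the edited libraries and at 6.11 and 23.5 CPM in the control libraries (log2 difference 2.82 ± 0.44, adjusted p = 1.07e-04). UBE2E1, a ubiquitin-conjugating enzyme, was at 101 and 62.6 CPM in the edited libraries and at 9.01 and 15.7 CPM in the control libraries (log2 difference 2.64 ± 0.33, adjusted p = 1.47e-05). The edited libraries exceeded both controls in each. ANKRD40CL was at 145 and 181 CPM in the edited libraries and at 21.8 and 32.9 CPM in the control libraries (log2 difference 2.55 ± 0.25, adjusted p = 1.73e-06). LUZP2, a leucine zipper protein, was at 52.7 and 54.5 CPM in the edited libraries and at 8.23 and 10.3 CPM in the control libraries (log2 difference 2.42 ± 0.29, adjusted p = 1.08e-05). RIPPLY2, a transcriptional repressor of somite formation, was at 35.7 and 30.8 CPM in the edited libraries and at 4.55 and 6.66 CPM in the control libraries (log2 difference 2.39 ± 0.33, adjusted p = 3.89e-05). These rises were about 6-fold in mean CPM. FAM227B was at 82.1 and 95.2 CPM in the edited libraries and at 10.4 and 24.5 CPM in the control libraries (log2 difference 2.39 ± 0.32, adjusted p = 2.93e-05). NKAIN2, a protein that binds the sodium pump, was at 18.8 and 18.9 CPM in the edited libraries and at 1.51 and 4.81 CPM in the control libraries (log2 difference 2.38 ± 0.40, adjusted p = 2.07e-04). ERICH3 was at 15.7 and 20.3 CPM in the edited libraries and at 2.26 and 3.31 CPM in the control libraries (log2 difference 2.33 ± 0.37, adjusted p = 1.30e-04). Groups without overlap were a condition for choosing these 10 genes. The first control library was lower than the second in all 10.

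The 10 genes with the largest fall included HSD3B1, given above. GSTA1, a glutathione transferase abundant in steroid-producing cells, was at 0.723 and 3.63 CPM in the edited libraries and at 232 and 259 CPM in the control libraries (log2 difference -6.44 ± 1.40, adjusted p = 0.00155). CYP11A1, which cuts cholesterol to pregnenolone, was at 3.33 and 14.5 CPM in the edited libraries and at 227 and 201 CPM in the control libraries (log2 difference -4.71 ± 0.61, adjusted p = 1.97e-05). FST, follistatin, which binds activin, was at 5.26 and 2.87 CPM in the edited libraries and at 177 and 101 CPM in the control libraries (log2 difference -4.78 ± 0.64, adjusted p = 2.71e-05). CYP11A1, FST and HSD3B1 are on the cumulus and granulosa list whose sums are given above. NDUFA4L2, a hypoxia-induced relative of a complex IV subunit, was at 0.492 and 1.17 CPM in the edited libraries and at 119 and 64.4 CPM in the control libraries (log2 difference -5.62 ± 0.97, adjusted p = 2.61e-04). MRO was at 11.5 and 23.9 CPM in the edited libraries and at 682 and 412 CPM in the control libraries (log2 difference -4.91 ± 0.87, adjusted p = 3.04e-04). TMEM54 was at 2.52 and 2.92 CPM in the edited libraries and at 129.9 and 97.6 CPM in the control libraries (log2 difference -4.94 ± 0.53, adjusted p = 4.18e-06). TMEM176B, a membrane protein, was at 23.3 and 32.4 CPM in the edited libraries and at 773 and 571 CPM in the control libraries (log2 difference -4.54 ± 0.28, adjusted p = 2.12e-07). All of these were present in both controls at more than 60 CPM. With the marker covariate GSTA1, NDUFA4L2, MRO, CYP11A1 and HSD3B1 took a positive sign and were not called. CYP11A1 and HSD3B1 are themselves part of the covariate. The covariate also lay higher in both control than in both edited 4-cell libraries, so these signs decide nothing about the genes.

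**Figure D4:**
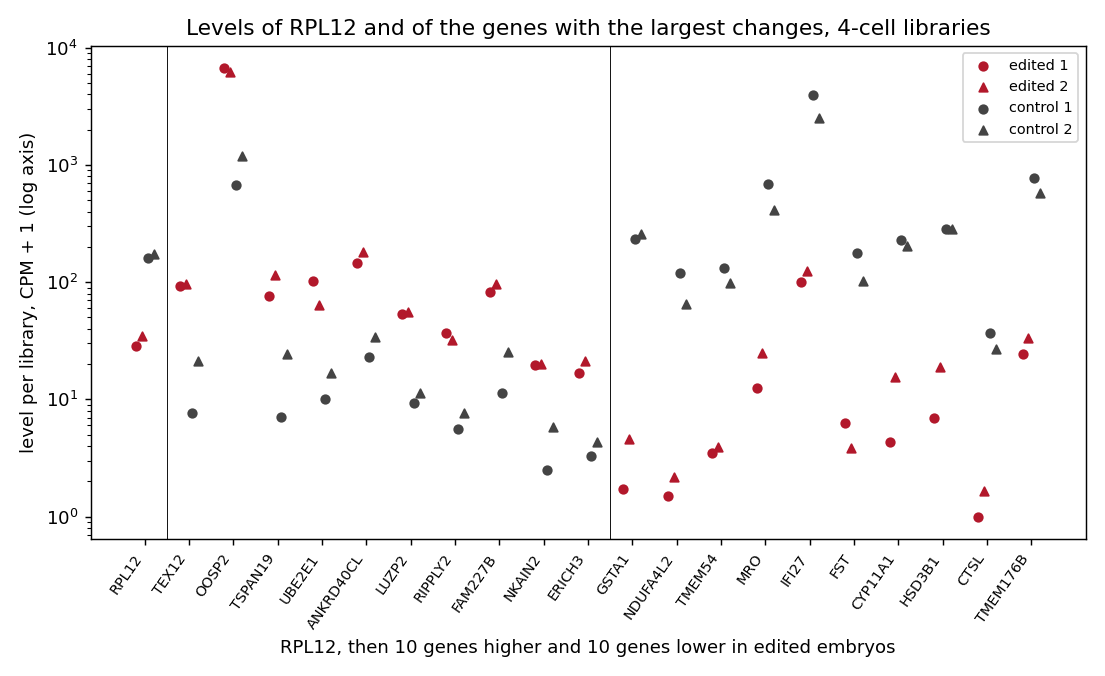
Level of RPL12 and of the 10 genes with the largest rise and the 10 with the largest fall (x axis), as CPM + 1 on a log axis, with 1 point per 4-cell library (red edited, dark grey control, circles first and triangles second replicate). The points of the groups do not overlap for RPL12, and for the other genes this was a condition of their choice.

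Among the remaining genes with most reads in control embryos, UBB, a polyubiquitin gene, was lower in edited embryos at 3139.8 and 3420.0 CPM in the edited libraries and at 5913 and 5769 CPM in the control libraries (log2 difference -0.83 ± 0.22, adjusted p = 0.00602). LUM, the matrix proteoglycan lumican, stood at 1282 and 1897 CPM in the edited libraries and at 2878 and 5965 CPM in the control libraries (log2 difference -1.41 ± 0.55, adjusted p = 0.0477), with the second control library at a level of its own. Its call was lost in most refits, with an adjusted p of 0.288 without the first edited, 0.110 without the second edited and 0.273 without the second control library.

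Some transcripts were at or near 0 in 1 group. A total of 60 genes had at most 3 reads in each edited library and a mean of at least 1 CPM in controls, and 1 gene showed the reverse. KRT2, a keratin, stood at 0 and 0 CPM in the edited libraries and at 5.79 and 10.2 CPM in the control libraries, at least 91.5-fold lower when the edited level is set to 3 reads per library. ADGRE3, an adhesion receptor of leukocytes, stood at 0 and 0 CPM in the edited libraries and at 5.10 and 7.18 CPM in the control libraries, by the same floor at least 70.4-fold lower. GSTA5, a relative of GSTA1, stood at 0 and 0 CPM in the edited libraries and at 4.84 and 6.27 CPM in the control libraries, at least 63.7-fold lower. SERPING1, the inhibitor of complement C1, stood at 0 and 0.0585 CPM in the edited libraries and at 7.36 and 5.98 CPM in the control libraries (log2 difference -2.89 ± 0.38, adjusted p = 2.33e-05). MAML2, a Notch coactivator, stood at 0 and 0.0585 CPM in the edited libraries and at 3.10 and 3.96 CPM in the control libraries (log2 difference -2.13 ± 0.37, adjusted p = 2.92e-04). In these 5 genes the controls had at least 100 reads per library. In the other direction M1AP, a meiotic protein, stood at 2.49 and 0.526 CPM in the edited libraries and at 0.0869 and 0 CPM in the control libraries. DYNLT5 stood at 1.33 and 0.526 CPM in the edited libraries and at 0 and 0.0586 CPM in the control libraries. SLC4A10, a bicarbonate transporter, stood at 1.59 and 0.234 CPM in the edited libraries and at 0 and 0.088 CPM in the control libraries. TRPC5OS had 1.27 and 0.497 CPM in the edited libraries and at 0 and 0 CPM in the control libraries, at least 10.1-fold higher, and TMEM8B 1.21 and 0.526 CPM in the edited libraries and at 0 and 0 CPM in the control libraries, at least 9.96-fold higher. The mean over the 4 libraries was under 1 CPM for these genes, so they were not tested.

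At the other end, 2371 genes had a 95% interval of the difference within 1 of 0. At this error that bounds any change of CPM + 1 to 2-fold. For weakly expressed genes it does not bound the change of CPM itself. REXO2, a mitochondrial exonuclease, was at 1122 and 1266 CPM in the edited libraries and at 1305 and 1120.2 CPM in the control libraries, with an interval of -0.45 to 0.41. NACA, of the nascent polypeptide complex at the ribosome exit, was at 956 and 963 CPM in the edited libraries and at 949.5 and 942 CPM in the control libraries, with an interval of -0.39 to 0.44. YWHAE, a 14-3-3 protein, was at 861 and 959 CPM in the edited libraries and at 973 and 802 CPM in the control libraries, with an interval of -0.40 to 0.48. These levels were nearly the same in all libraries.

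The 4-cell and 8-cell differences come from separate libraries, but the fit gave all 8 libraries a shared estimate of the spread. Calls at these stages are therefore not independent, and the genes had been filtered on their 4-cell mean. The same contrast was read at the 8-cell stage. There 127 genes were higher (1.05%) and 1770 lower (14.6%) among the same 12121. Of the 3214 genes lower at the 4-cell stage 1516 (47.2%) were also lower at the 8-cell stage, which is 85.6% of the genes lower there. Of the 2297 higher genes 47 (2.05%) were higher at both stages, which is 37.0% of those higher at the 8-cell stage. Over genes, Pearson's r between the 4-cell and 8-cell differences was 0.722, and Spearman's rho 0.635, given as a description. A test of the difference between the stage effects called 482 genes (3.98%), and in 443 of them the change was larger in size at the 4-cell stage, 219 of them higher and 224 lower there.

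RPL12 fell at both stages, with an 8-cell difference of -2.81 ± 0.24 and a stage difference of -0.40 ± 0.35, adjusted p = 0.517. Ribosomal protein medians were -1.67 and -1.74, with no member's stage difference called, and interferon-stimulated medians were -2.16 and -2.50, with 2 called. Kinesins, tubulins and spindle proteins, in contrast, had medians of 0.82 and 0.06, with 13 of 52 stage differences called. CTSL was at 6.69 and 5.15 CPM in the edited libraries and at 4.09 and 10.7 CPM in the control libraries at the 8-cell stage, and its effect was smaller there (stage difference 4.44 ± 0.62, adjusted p = 0.00756). OOSP2 was at 3263 and 3012 CPM in the edited libraries and at 2821 and 2242 CPM in the control libraries at the 8-cell stage (stage difference -2.53 ± 0.37, adjusted p = 0.00756). SPC25 was at 139 and 105 CPM in the edited libraries and at 127 and 107 CPM in the control libraries there (stage difference -1.95 ± 0.32, adjusted p = 0.0119). In these genes the 8-cell groups lay closer to each other than the 4-cell groups. Cumulus and granulosa marker sums were 889 and 907 CPM in the edited and 1527 and 2257 CPM in the control libraries at the 8-cell stage, a smaller gap than at the 4-cell stage, and their part in the stage differences was not tested. The count of stage differences ranged from 0 to 1363 when single libraries were left out, being 0 without the first or the second edited 4-cell library, 74 without the first and 1363 without the second 4-cell control library, 13 and 29 without the first and the second 8-cell edited library, and 16 without the first 8-cell control library. With the edgeR test it was 21.

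**Figure D5:**
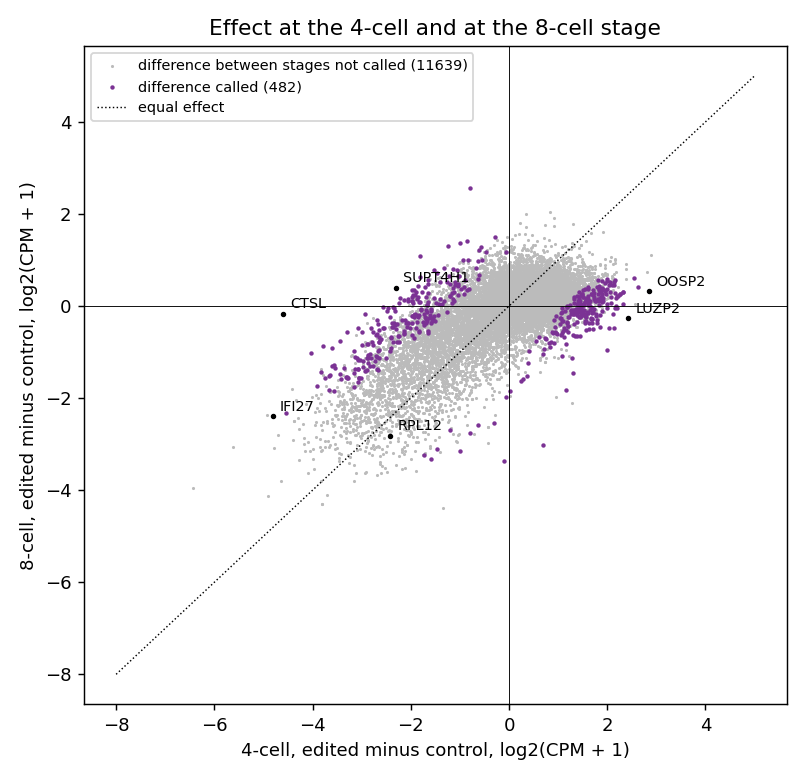
Each point is 1 of the 12121 genes, with its 4-cell difference on the x axis and its 8-cell difference on the y axis (edited minus control, log2(CPM + 1)). Purple points are the 482 genes whose stage difference was called, the dotted line marks equal effects, and most purple points lie nearer to 0 on the 8-cell axis than on the 4-cell axis.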

How the data were processed

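Polyadenylated RNA from pools of 5 embryos was amplified as full-length cDNA and tagmented, per the labels' protocols. Reads were processed with Trim Galore 0.6.7, HISAT2 2.2.1 and featureCounts 2.0.1, per the submitters' processing notes, whereas the genome build, the annotation and the strand setting are not given in the sources used here. The values deposited by the authors are CPM, and 4 further columns of the table matched no sample and were not used. In each library 100% of the positive values were whole multiples of 1 step within 0.05 reads, so whole reads could be recovered. Amplified cDNA carried no molecular identifiers, so reads are not separate molecules and limits from read numbers cover counting error only.

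From the deposited CPM, log2(CPM + 1) values of genes whose mean over the 4-cell libraries reached 1 CPM were fitted with limma 3.58.1 (R 4.3.3, intensity trend, 1 mean for each of the 4 groups, 8 libraries), with Benjamini-Hochberg adjustment and a threshold of 0.05. This scale understates changes of low genes. Just inside the filter lay FBN2 and HOXB9 (means of 1.00 CPM) and just outside it IGFBP4 and MTARC1 (0.999 CPM). On the recovered reads edgeR 4.0.16 called 5320 genes and DESeq2 1.42.0 called 5592. Gene symbols were used as deposited, and 16571 of 16606 are in a RefSeq table, which served for names only. The script was tested on simulated data with far fewer changed genes than were called here, drawn only from better expressed genes. Fewer changes make the adjusted threshold stricter, so the shares recovered do not carry over to the real comparison. The script recovered 16 of 100 genes with a true log2 change of 1 and 82 of 100 with a change of 2. A gene that was not called here may still have changed. Figures were drawn with matplotlib 3.10.9.

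The comparison, the gene lists and the rule for named genes were chosen with earlier results of these data known. Named are RPL12, the 10 called genes with the largest change in each direction (mean of at least 10 CPM, no overlap), for each list up to 3 called members with the smallest p-values and 1 moving the opposite way, the 10 genes with most reads in each group, up to 5 genes per direction with at most 3 reads in each library of a group, and 5 genes whose 95% interval lies within 0.5 of 0. Lists are described by counts and medians, without a test. Alternatives were other filters, pseudocounts, scalings and tests, a replicate block, a marker covariate, and leaving out each library.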

Additional observations from a re-analysis of the deposited data

Results flagged for a closer look

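A test of the stage difference (8-cell effect minus 4-cell effect, log2 scale, limma, adjusted p under 0.05) marked 48 of the 168 named genes tested, 22 that had risen and 26 that had fallen in edited 4-cell embryos. Over all genes tested the share marked was 3.98% (482 of 12121), and in 39 of these 482 the larger change was at the 8-cell stage. Most named genes were chosen for their 4-cell change, which enters this difference, so their share and its direction support nothing. Among genes that rose at the 4-cell stage, the stage difference was -2.69 for LUZP2, -2.53 for OOSP2, -2.28 for ERICH3, -2.23 for UBE2E1, -1.95 for ANKRD40CL, -1.95 for SPC25, -1.77 for NUP37 and -1.67 for RAD50. It was -1.65 for GTF2A1, -1.63 for CNOT6L, -1.58 for SEC63, -1.55 for TP53INP1, -1.54 for CNOT6, -1.54 for BRCA2, -1.50 for ATRX and -1.45 for RDX. The remaining rises differed by -1.44 for UHRF2, -1.42 for SNRPF, -1.36 for PCGF6, -1.35 for EIF5B, -1.33 for NANOS1 and -1.24 for CKS2. Among genes that fell at the 4-cell stage, the difference was 4.44 for CTSL, 2.70 for SUPT4H1, 2.42 for IFI27, 2.38 for CLU, 2.22 for TMEM176B, 2.18 for ATP6V0D1, 2.14 for DDOST, 2.07 for SERPING1 and 1.85 for TUBB6. Next came 1.78 for TMED3, 1.75 for ACTB, 1.75 for MRPL28, 1.73 for POLR2E, 1.70 for EIF1AD, 1.70 for PGAM1, 1.64 for EXOSC4, 1.63 for PSMC3 and 1.52 for S100A16. The smallest differences of this kind were 1.51 for SPINT2, 1.51 for EIF2B2, 1.48 for EIF6, 1.39 for NELFE, 1.30 for SEC13, 1.27 for SDHB, 1.26 for APEX1 and 1.10 for BNIP3L. The number of such calls depended on single libraries, as given with the dependence on the processing. With 2 libraries per group no test for a library far from its group could be made.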

How the results depend on the processing

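RPL12 stayed lower and called in every alternative except the marker covariate (-1.99, adjusted p = 0.490), with differences from -2.56 to -2.27 when single libraries were left out. No gene called in the 4-cell comparison was called in the opposite direction in any alternative. With the covariate 433 of 5511 changed sign without a call, and 1 gene was called (0 higher, 1 lower) with 11 stage differences; among the named genes the values became 5.71 for GSTA1, 2.13 for NDUFA4L2, 2.67 for MRO, 0.83 for CYP11A1, 0.47 for HSD3B1, -0.091 for DDIT3 and 1.92 for GSTA5. The median SE over genes was 1.02 with the covariate and 0.35 without it. The covariate alone separates the 4-cell groups and holds CYP11A1 and HSD3B1, so this fit cannot tell the markers from the editing. Leaving out single libraries gave 3807 to 5506 calls, 1322 to 2356 of them higher and 2485 to 3240 lower. The stage differences ranged from 0 to 1363 in the same refits; they numbered 0 with no filter on low values (2993 at an unadjusted p under 0.05) and 0 with no intensity trend (2602), 21 with edgeR and 1100 with DESeq2, and the cause was not tested. Of 159 named genes called, 13 lost their call in at least 1 alternative besides the covariate, 10 of them when a 4-cell library was left out. Deviations of same-numbered libraries from their 4-cell group means correlated with 0.11, and the other stage and group pairs with -0.30 to 0.02, so the numbers were not taken to pair the libraries; with the replicate block 5309 genes were called (2180 higher, 3129 lower), with 394 stage differences and RPL12 at -2.41 (adjusted p = 9.68e-07). Counting each set of identical rows once gave 5469 calls; this alternative was chosen after seeing the data. Of 39 gene lists, the median of 18, the count of higher members of 26 and the count of lower members of 9 changed sign or moved by over 1.5 times when a single 4-cell library was left out. At the depth of the 4-cell libraries 3 reads corresponded to 0.0868 to 0.0880 CPM.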

Other observations

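The deposited table holds rows with different symbols and identical values in all columns used. With a minimum of 100 reads over the 4-cell libraries there were 106 such sets of 240 rows, and RefSeq lists the symbols of 2 sets as synonyms. Of the 134 surplus rows 125 were tested and 56 called, 26 higher and 30 lower. Pairs besides those named above include RPL36 with HSD11B1L, COX7C with LOC101902937, NDUFA13 with YJEFN3, MRPS6 with SLC5A3 and TUBA1C with LOC100141266, so that 26 members of the gene lists carry values whose source gene is uncertain.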
